A study of Mus musculus with 12 samples.

Results

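The Hox genes of the mouse lie in 4 clusters, HoxA on chromosome 6, HoxB on chromosome 11, HoxC on chromosome 15 and HoxD on chromosome 2. The genes described here are the protein-coding genes whose RefSeq symbol is Hoxa, Hoxb, Hoxc or Hoxd followed by a number, 38 of the 21887 protein-coding genes of the annotation. Each cluster was viewed from 20 kb before its first gene to 20 kb after its last gene, and these 4 windows held 98 of 18139 INO80 peaks, 58 of 26199 knockout H2A.Z peaks and 77 of 33827 wild-type H2A.Z peaks. The peaks come from chromatin immunoprecipitation and sequencing (ChIP-seq) of spermatogenic cells, the germ cells of the seminiferous tubules, taken from mouse testes at postnatal day 18 (P18). All mice were of mixed background.

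H2A.Z was precipitated from Ino80cKO cells, in which Stra8-Cre, a recombinase under the promoter of a gene of premeiotic germ cells, had deleted Ino80 in the testis, and from Ino80WT cells. INO80 itself was precipitated from wild-type cells alone. There were 2 libraries of each kind, with an input group of 2 libraries beside each, 12 libraries in all. Each of the 3 deposited lists stands for the 2 libraries of its group and gives peak positions without heights, so the values below carry no replicate error, the depth is unknown, and every comparison is a description without a test. Germ cells that escaped the deletion, and somatic cells that passed the tubule digest, would remain in the Ino80cKO sample.

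Hox proteins are homeodomain transcription factors that give the body axis, the limbs and the genital tract their positional identity. Along each cluster the genes stand in the order in which they are expressed from head to tail, and genes of the same number in different clusters, called a paralog group, descend from the same ancestral gene. In cells where a Hox gene is silent its chromatin is typically held by Polycomb complexes over broad CpG-rich domains. INO80 is the ATPase of a remodelling complex that moves nucleosomes and can exchange H2A.Z, and the histone variant H2A.Z takes the place of H2A at promoters and enhancers of active and of Polycomb-bound genes.

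All 4 Hox clusters were densely covered by INO80 peaks and more sparsely by H2A.Z peaks. Over the 652.1 kb of the 4 windows INO80 peaks covered 111243 bp (17.1%), knockout H2A.Z peaks 28744 bp (4.41%) and wild-type H2A.Z peaks 41177 bp (6.31%). INO80 thus took up 2.70 times as much Hox sequence as wild-type H2A.Z, whereas over the whole lists it took up 0.873 times as much. The mean widths behind these sums were 1135 bp for the 98 INO80 peaks, 495.6 bp for the 58 knockout H2A.Z peaks and 534.8 bp for the 77 wild-type H2A.Z peaks of the windows. The median INO80 peak was wider in the Hox windows (861.5 bp) than in the whole list (678 bp), while the median H2A.Z peak was narrower in the windows in the knockout list (347 against 422 bp) and in the wild-type list (398 against 460 bp).

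The clusters differed from one another in how much INO80 they held. HoxD (chr2:74648225-74785142, 136.9 kb, mm10) held 23 INO80 peaks over 23.0% of its window and HoxA (chr6:52135367-52280880, 145.5 kb) 29 peaks over 22.4%. HoxB (chr11:96174316-96388254, 213.9 kb) held 25 INO80 peaks over 13.3% and HoxC (chr15:102901131-103056856, 155.7 kb) 21 peaks over 12%. HoxD and HoxA therefore stood well above HoxB and HoxC, and the order of the H2A.Z cover was similar. Knockout H2A.Z covered 6.46% of the HoxD window, 4.59% of HoxA, 3.64% of HoxC and 3.53% of HoxB, and wild-type H2A.Z covered 8.76%, 7.29%, 5.04% and 5.02% of the same windows. In every cluster INO80 covered between 2.38 times (HoxC) and 3.08 times (HoxA) as many bases as wild-type H2A.Z.

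**Figure D1:**
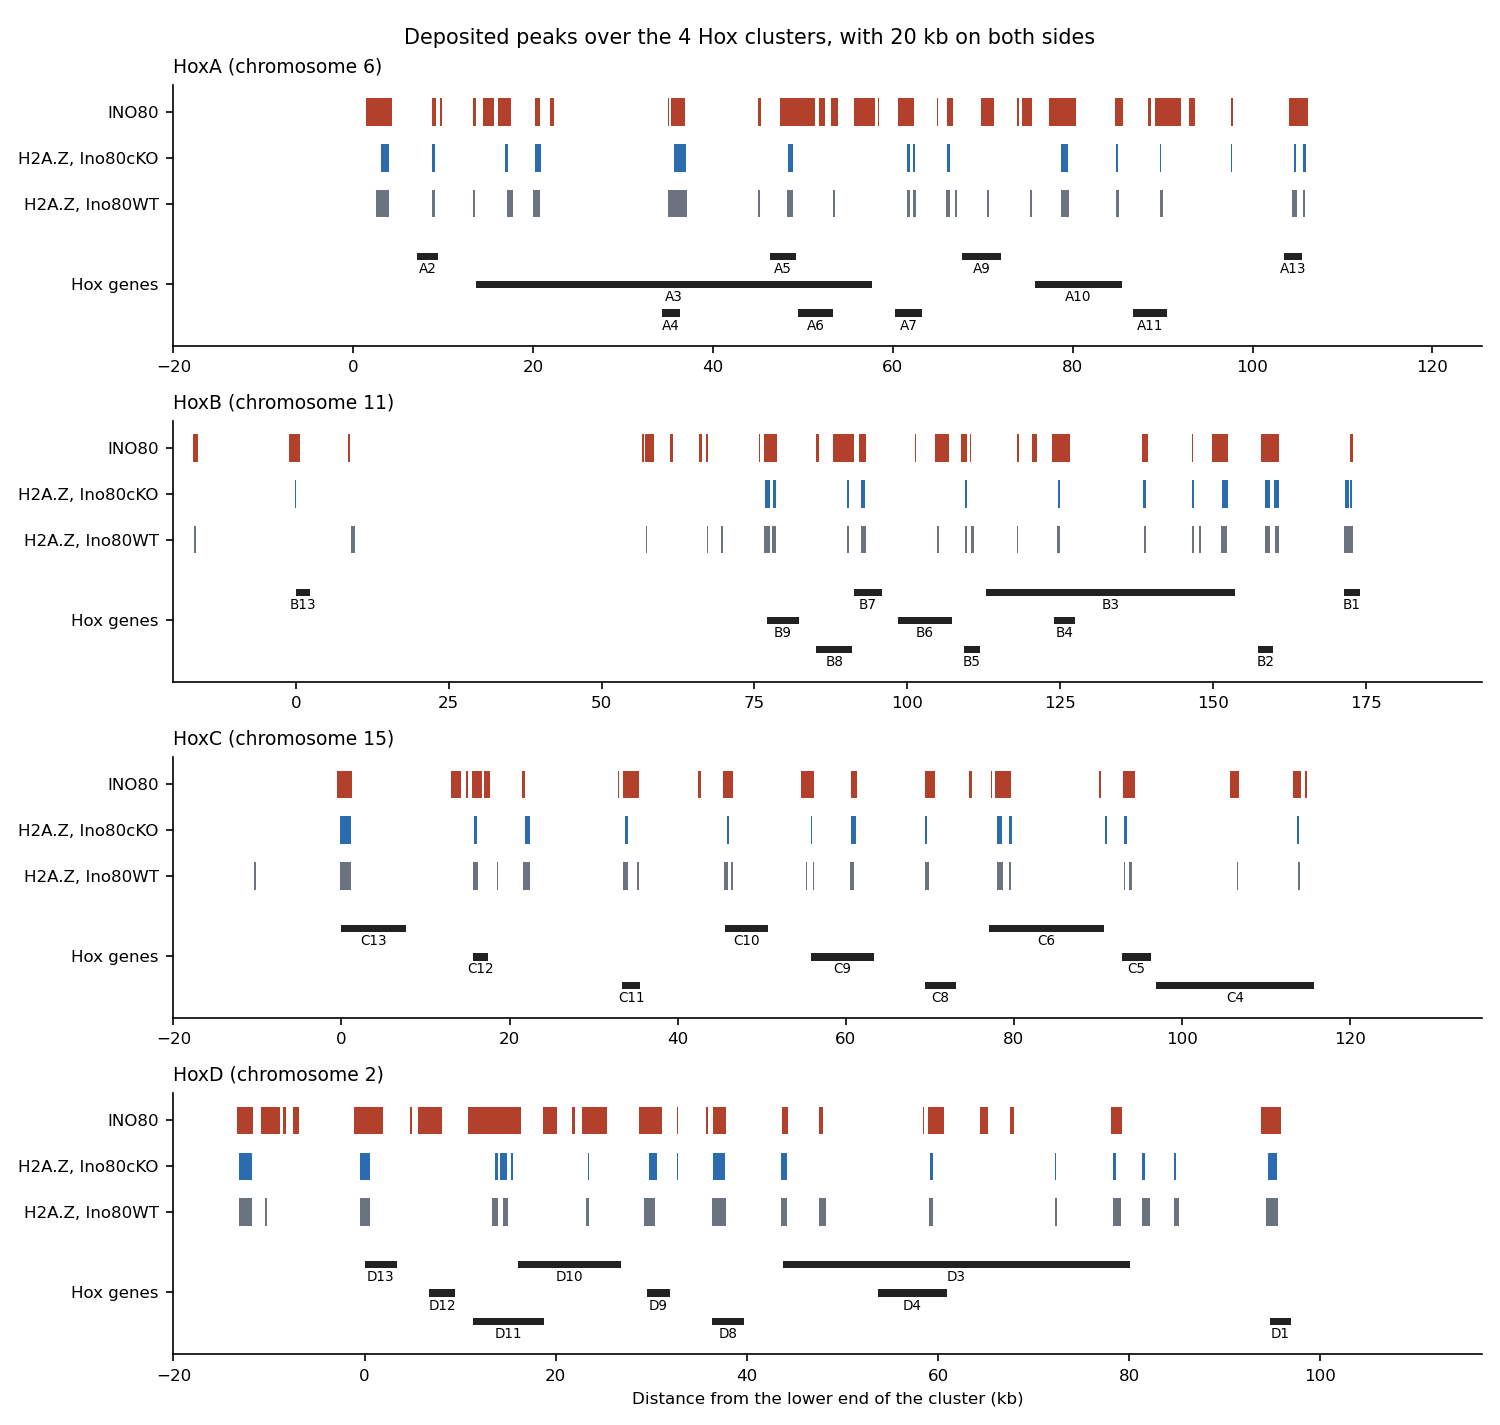
Deposited peaks along the 4 Hox clusters, with distance from the lower end of the cluster in kb on the horizontal axis and rows for INO80, H2A.Z of Ino80cKO cells, H2A.Z of Ino80WT cells and the Hox genes (letter and number). Bars are drawn to scale: INO80 bars are the widest, up to 5614 bp over Hoxd11 and Hoxd10, and the stretch between Hoxb13 and Hoxb9 is the longest without INO80 (47.8 kb).

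Such cover was rare among fixed tiles of the genome. Among 18007 tiles of 150 kb laid along the chromosomes, 16 (0.0889%) had an INO80 cover of at least 12%, that of the least covered Hox window, and 3 of these 16 overlapped a Hox window. The median tile held no INO80 and the 99th percentile was 5.81%. The highest tile had 58.3%, and 3 tiles had at least the 23.0% of the most covered Hox window. For H2A.Z the Hox windows stood out less: 132 tiles (0.733%) reached the 3.53% of the least covered Hox window in the knockout list and 83 tiles (0.461%) the 5.02% in the wild-type list, with 4 tiles overlapping a Hox window in each case. The Hox windows are dense in genes and differ in length from the tiles, which were not matched for either. The windows were also drawn around the clusters, whereas tile borders were fixed and can split a dense domain. All 4 windows reached the 12%, yet only 3 tiles that overlap one did, so the tile shares can miss such domains.

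The cover lay between the first and the last gene and dropped sharply outside. Inside the clusters 20.8% of bases lay in an INO80 peak, 5.39% in a knockout H2A.Z peak and 7.78% in a wild-type H2A.Z peak. The 20 kb flanks held 5.45%, 1.39% and 1.80% of the same 3 kinds. Only the HoxD flanks held much INO80 (13.9%, against 1.34 to 4.83% in the flanks of the other clusters), and they contain Evx2, a homeobox gene of the even-skipped family that lies next to Hoxd13 and carried 4 INO80 peaks. Within HoxB the 47.8 kb between Hoxb13 and its neighbours (chr11:96203146-96250932) had no INO80, a gap that spanned 76.6 kb in the knockout H2A.Z list and 47.6 kb in the wild-type H2A.Z list. The longest stretch without INO80 in the other clusters was 11.8 kb in HoxC, 12.7 kb in HoxA and 14.6 kb in HoxD.

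**Figure D2:**
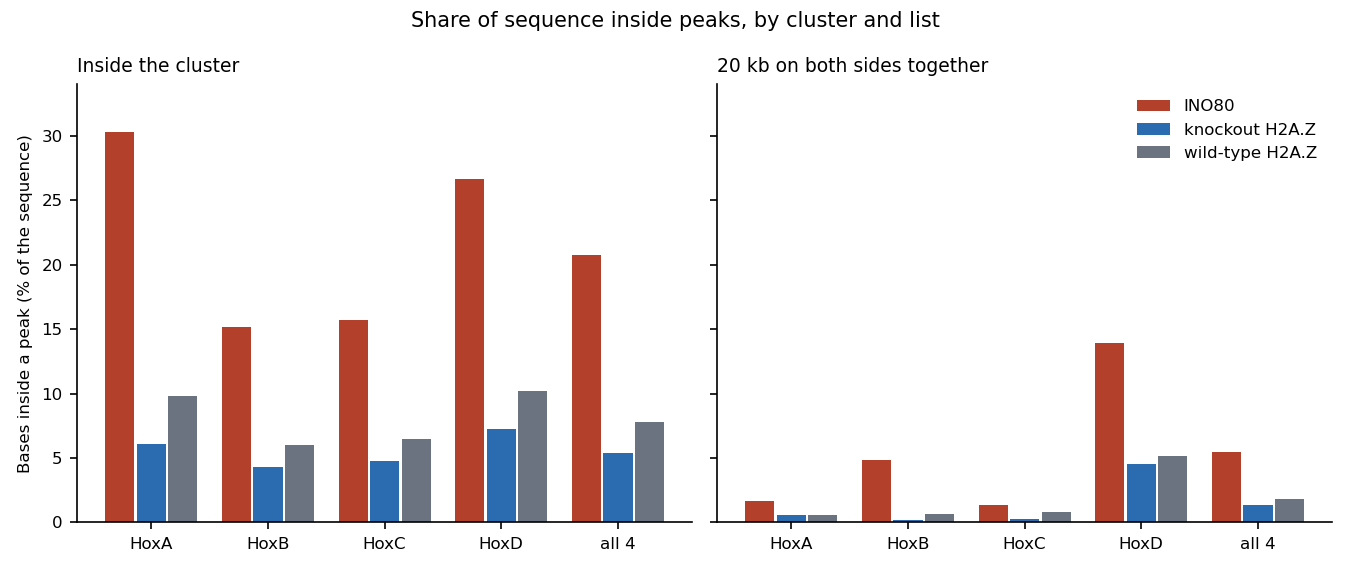
Percent of bases inside a peak for each cluster and list, inside the cluster on the left and in the 20 kb on both sides together on the right. Bars start at 0 and each stands for 1 pooled list, without an error; the INO80 bar is the tallest in every cluster, from 15.2% in HoxB to 30.3% in HoxA inside the clusters.

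In the windows 6 of 98 INO80 peaks were 3 kb or wider, against 551 of 18139 (3.04%) in the whole list. The widest was a 5614 bp peak over Hoxd11 and the lower end of Hoxd10 (chr2:74679022-74684635), genes that pattern the limb. A 3837 bp peak lay over Hoxa5, which is needed for lung development, and Hoxa6 (chr6:52202856-52206692), and also within the long span annotated to the anterior gene Hoxa3. A 3343 bp peak covered the end of Hoxb8 that faces Hoxb7 (chr11:96282230-96285572). The others were at Hoxa10, a gene of the uterus and the axial skeleton (3035 bp), Hoxd13, which shapes digits and genitalia (3004 bp), and the anterior gene Hoxb2, which acts in the hindbrain (3009 bp). HoxC had none this wide, and its widest INO80 peak was 1910 bp at Hoxc11.

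INO80 was present at an end of nearly every Hox gene. A gene end is counted as occupied here when a peak lies within 1 kb of either annotated end of the gene. The gene annotation gives no strand, and a start site inside these outer ends is not counted. By that measure 37 of 38 Hox genes (97.4%) had INO80, against 54.5% of all protein-coding genes. Knockout H2A.Z was at the ends of 30 of 38 (78.9%, against 59.2%) and wild-type H2A.Z at 30 of 38 (78.9%, against 62.6%). Counting 1 kb around the gene and its body together, the median Hox gene had 35.9% of its span inside INO80 peaks, 8.12% inside knockout H2A.Z peaks and 10.5% inside wild-type H2A.Z peaks, where the medians of all protein-coding genes were 0.905%, 1.17% and 1.64%. Hox genes are short, and a peak of a given width fills a larger percent of a short gene.

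In HoxA all 10 genes described had INO80 at an end, and INO80 covered from 14.1% of the span of Hoxa2 to 74.0% of that of Hoxa6. Hoxa2, which patterns the second branchial arch, had 471 bp as the widest INO80 peak at its ends, the smallest such value in HoxA, with a knockout H2A.Z peak of 303 bp and a wild-type H2A.Z peak of 340 bp. Hoxa5 and Hoxa6 shared the widest, the 3837 bp peak, over H2A.Z peaks of 534 bp in the knockout list and 622 bp in the wild-type list. Thus the broadest INO80 domain of HoxA held a far narrower H2A.Z peak in both genotypes. Hoxa4 had the broadest H2A.Z of any Hox gene, 1322 bp in the knockout list and 2166 bp in the wild-type list (chr6:52190317-52192482), beside an INO80 peak of 1552 bp.

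At 2 HoxA genes a gene end carried H2A.Z in the wild-type list alone. In both genes this was the end away from the start site. Neither H2A.Z list had a peak within 1 kb of the start known for each. Hoxa3, which directs the development of thymus and parathyroid, had a 207 bp wild-type H2A.Z peak at an end and none in the knockout list, although its 44009 bp span held 4 knockout and 7 wild-type H2A.Z peaks. Hoxa9, a gene of blood stem cells and leukaemia, had no knockout H2A.Z peak over its span and 2 narrow wild-type H2A.Z peaks. The 240 bp one lay under an INO80 peak of 1369 bp (chr6:52225209-52226577), and the 208 bp one overlapped no INO80. The remaining members of HoxA had H2A.Z at an end in both lists. Their INO80 peaks were 1884 bp at Hoxa7, 2886 bp at Hoxa11, which acts in kidney and forelimb, and 2117 bp at Hoxa13, a gene of digits and hindgut. All 10 HoxA genes had more of their span inside wild-type than inside knockout H2A.Z peaks. This was the common direction, found in 12117 of the 15639 protein-coding genes with any H2A.Z.

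In HoxB 9 of 10 genes had INO80 at an end. The exception was Hoxb3, whose ends were free of all 3 kinds of peak within 1 kb. Its 40830 bp span (chr11:96307101-96347930) nevertheless held 6 INO80, 4 knockout H2A.Z and 7 wild-type H2A.Z peaks, which covered 18.2%, 4.99% and 5.86% of it, and it contains Hoxb4. Hoxb4, known for the expansion of blood stem cells, had a 2940 bp INO80 peak with H2A.Z peaks of 414 bp in the knockout list and 397 bp in the wild-type list. Hoxb6 had a 2416 bp INO80 peak and no H2A.Z at either end. Its span had no knockout H2A.Z peak and a 342 bp wild-type H2A.Z peak.

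Hoxb13 and Hoxb1, at opposite tips of HoxB, carried H2A.Z differently. Hoxb13, a gene of the prostate and the tail, had INO80 (1789 bp) and a 186 bp H2A.Z peak in the knockout list, with none in the wild-type list. Hoxb1, which sets the identity of a hindbrain segment, had H2A.Z over 18% of its span in the knockout list and 32.7% in the wild-type list, where INO80 covered 10.9%. Hoxb1 was the only one of the 38 genes with more wild-type H2A.Z and more knockout H2A.Z than INO80 over its span. Hoxb2 and Hoxb9 had H2A.Z peaks of 882 and 887 bp in the knockout list and 828 and 992 bp in the wild-type list. Hoxb5, Hoxb7 and Hoxb8 had narrower ones at their ends, 364 to 400 bp in the knockout list and 334 to 500 bp in the wild-type list. Hoxb7 and Hoxb8 shared theirs, which lay inside Hoxb8 (364 bp knockout, 334 bp wild type). The body of Hoxb7, farther than 1 kb from its ends, held a wider H2A.Z peak, 655 bp (knockout) and 734 bp (wild type).

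In HoxC all 9 genes had INO80 at an end, and the widest such peak of a gene ranged from 264 bp at Hoxc4 to 1910 bp at Hoxc11. Hoxc4 alone lacked H2A.Z at its outer ends in both lists. A start site inside its span (chr15:103034395) nevertheless had H2A.Z of both lists within 1 kb, 186 bp (knockout) and 284 bp (wild type), and 939 bp of INO80. Hoxc13, which is needed for hair formation, had the widest H2A.Z of the cluster, 1280 bp in the knockout list and 1258 bp in the wild-type list, under an INO80 peak of 1754 bp (chr15:102920595-102922348). H2A.Z thus took up most of the width of INO80 at Hoxc13, unlike at Hoxc11, where a 357 bp knockout and a 613 bp wild-type H2A.Z peak lay at the gene ends beside 1910 bp of INO80. Hoxc12 had 57.1% of its span inside INO80 peaks, the highest of the cluster. Hoxc5, Hoxc6, Hoxc8, Hoxc9 and Hoxc10, of which Hoxc6, Hoxc8 and Hoxc9 assign motor neuron identity along the spinal cord, had INO80 peaks of 1176 to 1872 bp with H2A.Z peaks at the ends of 153 to 590 bp in the knockout list and 233 to 734 bp in the wild-type list.

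In HoxD all 9 genes had INO80 at an end, 6 had knockout H2A.Z there (66.7%, against 59.2% of all protein-coding genes) and 5 wild-type H2A.Z (55.6%, against 62.6%), shares near those of all genes. Hoxd12, a limb gene, was the clearest case of INO80 without H2A.Z: a 2495 bp INO80 peak (chr2:74673826-74676320) covered 49.2% of its span, and neither H2A.Z list had a peak over it. No other of the 38 genes lacked both kinds of H2A.Z over its whole span. At Hoxd11 and Hoxd10 the 5614 bp INO80 peak contained 3 knockout H2A.Z peaks and 2 wild-type H2A.Z peaks. These lay inside Hoxd11 rather than at its outer ends, but its start site at chr2:74682323 had H2A.Z of both lists within 1 kb. A 184 bp knockout H2A.Z peak inside Hoxd11, near the lower end of Hoxd10, had no wild-type partner. The start of Hoxd10 (chr2:74691891) had H2A.Z of both lists within 1 kb, 180 bp (knockout) and 275 bp (wild type). Hoxd4 had a 1752 bp INO80 peak and no H2A.Z at its ends. Hoxd3, which shapes the upper cervical vertebrae, had 1103 bp as the widest INO80 peak at its ends, the smallest such value of the cluster.

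The other HoxD genes carried broad H2A.Z in both lists. Hoxd8 had H2A.Z peaks of 1284 bp in the knockout list and 1451 bp in the wild-type list, about the width of its INO80 peak (1353 bp). Hoxd1 had 1026 and 1244 bp beside 2029 bp of INO80, Hoxd13 had 980 and 1057 bp beside 3004 bp, and Hoxd9 had 836 and 1123 bp beside 2396 bp. In each of these 4 genes the knockout H2A.Z peak was narrower than the wild-type one. The same direction held for 17099 of the 23485 places in the whole lists where peaks of both genotypes overlapped.

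The shares of INO80 and H2A.Z peaks that overlapped each other differed between the Hox windows and the whole lists. Of the 98 INO80 peaks, 59 (60.2%) overlapped a wild-type H2A.Z peak, against 83.0% in the whole list, and 46 (46.9%) overlapped a knockout H2A.Z peak, against 77.6%. In base pairs, 23.6% of the Hox INO80 sequence lay under knockout H2A.Z and 30.4% under wild-type H2A.Z, where the whole list had 50.8% and 58.5%. Among INO80 peaks of 3 kb or wider the difference was smaller. The 6 Hox peaks had 25.9% under each H2A.Z list, against 29.6% (knockout) and 36.4% (wild type) for the 551 of the whole list. The shares of INO80 are limited by how much H2A.Z there is. The windows held 28744 bp (knockout) and 41177 bp (wild type) of H2A.Z, against 111243 bp of INO80. Of that H2A.Z, 26230 and 33844 bp lay within INO80. The windows also held fewer H2A.Z than INO80 peaks, whereas the whole lists held more. The part of these amounts in the lower shares was not tested. Seen from H2A.Z the overlap was nearly complete. Of the knockout H2A.Z peaks 53 of 58 (91.4%, against 57.9% in the whole list) overlapped INO80, and of the wild-type H2A.Z peaks 68 of 77 (88.3%, against 47.2%).

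Most Hox H2A.Z peaks were islands inside a broader INO80 peak. Of those overlapping INO80, 42 of 53 knockout peaks (79.2%, against 47.6% in the whole list) and 47 of 68 wild-type peaks (69.1%, against 40.3%) lay entirely within INO80. The Hox INO80 peaks were also wider than those of the whole list, and the part of their width in the nesting was not tested. The H2A.Z peaks without INO80 numbered 5 in the knockout list (3 in HoxD, 1 in HoxB and 1 in HoxC) and 9 in the wild-type list (3 in HoxD, 3 in HoxB, 2 in HoxC and 1 in HoxA). In HoxD, 3 of 16 knockout and 3 of 16 wild-type peaks lay without INO80 between the body of Hoxd3 and Hoxd1, the widest with 292 bp in the knockout list and 801 bp in the wild-type list (chr2:74749592-74750392).

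The peaks were then set against the transcription start sites that are known with their strand. RefSeq promoters of 300 bases, from 250 before to 50 after a start, were available for 24 start sites of 22 of the 38 genes, 10 in HoxA, 3 in HoxB, 1 in HoxC and 10 in HoxD. The start itself lay inside an INO80 peak at 17 of 24 (70.8%, against 37.4% of 21263 protein-coding promoters). It lay inside a knockout H2A.Z peak at 3 of 24 (12.5%, against 35.3%) and inside a wild-type H2A.Z peak at 6 of 24 (25%, against 43.0%). Thus the share of starts under INO80 was above, and the share under H2A.Z below, that of all promoters. At 12 of the 24 starts (50%, against 7.03%) INO80 was present and H2A.Z was absent in both lists.

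The 4 promoters below show 4 of the 5 patterns that occurred; the other, INO80 with wild-type H2A.Z alone, is not printed. They are given 5′ to 3′ on the strand of the gene from RefSeq (GRCm38.p6, the assembly that mm10 names), with every CpG in capitals. Hoxd13 (chr2:74667975-74668274, plus strand) had its start inside a peak of all 3 lists, Hoxd12 (chr2:74674763-74675062, plus strand) inside INO80 alone, Hoxb1 (chr11:96365508-96365807, plus strand) inside wild-type H2A.Z alone, and Hoxa9 (chr6:52227321-52227620, minus strand) inside none.
Hoxd13: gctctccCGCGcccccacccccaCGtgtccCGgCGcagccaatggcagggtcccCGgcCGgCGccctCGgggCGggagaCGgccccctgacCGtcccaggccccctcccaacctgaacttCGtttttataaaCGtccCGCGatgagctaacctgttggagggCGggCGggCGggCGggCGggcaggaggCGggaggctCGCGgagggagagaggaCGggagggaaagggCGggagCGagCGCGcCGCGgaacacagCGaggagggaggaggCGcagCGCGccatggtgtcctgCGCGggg
Hoxd12: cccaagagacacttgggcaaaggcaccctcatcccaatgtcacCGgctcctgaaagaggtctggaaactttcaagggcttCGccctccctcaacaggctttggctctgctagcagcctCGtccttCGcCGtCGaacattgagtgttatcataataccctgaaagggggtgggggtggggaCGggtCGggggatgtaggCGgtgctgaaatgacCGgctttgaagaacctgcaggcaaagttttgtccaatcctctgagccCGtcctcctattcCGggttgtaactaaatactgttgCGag
Hoxb1: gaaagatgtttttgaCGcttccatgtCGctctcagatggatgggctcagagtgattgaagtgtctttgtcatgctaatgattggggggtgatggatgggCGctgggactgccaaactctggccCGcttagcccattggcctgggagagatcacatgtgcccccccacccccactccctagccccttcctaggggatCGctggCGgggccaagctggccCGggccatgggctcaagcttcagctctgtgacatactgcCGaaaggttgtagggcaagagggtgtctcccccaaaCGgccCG
Hoxa9: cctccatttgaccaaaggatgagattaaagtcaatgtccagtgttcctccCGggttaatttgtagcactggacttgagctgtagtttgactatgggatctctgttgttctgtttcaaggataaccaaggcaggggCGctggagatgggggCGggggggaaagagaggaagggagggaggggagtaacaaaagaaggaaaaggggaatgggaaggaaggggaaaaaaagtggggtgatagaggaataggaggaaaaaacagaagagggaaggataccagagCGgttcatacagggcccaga

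The printed promoters with INO80 have more CpG than those without it. Hoxd13 has 37 CpG in its 300 bases and Hoxd12 has 13, and both lie whole within an INO80 peak. Hoxb1 has 10 CpG and Hoxa9 has 4, and neither holds any base of INO80. Over all 24 Hox promoters, those with the start inside INO80 had a median of 20 CpG (range 4 to 45, 17 promoters) and those outside a median of 9 (range 4 to 13, 7 promoters). Among all protein-coding promoters the medians were 26 and 5, so the direction is that of promoters in general. The richest Hox promoter, that of Hoxa13 with 45 CpG, lay under INO80, and so did a promoter of Hoxd11 with 4 CpG, which the 5614 bp peak reaches over. YY1, which binds DNA and associates with the INO80 complex, recognises sequence like CCATNTT. That motif, searched on both strands, occurred in 2 of the 24 Hox promoters (8.33%, those of Hoxc4 and Hoxd10), against 15.1% of all promoters.

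Start sites in all 3 lists belonged to Hoxd1, Hoxd3 and Hoxd13, all of HoxD. HoxA had as many starts available as HoxD (10 each), but HoxB had only 3 and HoxC only 1. INO80 with wild-type H2A.Z alone was found at Hoxd9 and at 1 of 2 starts of Hoxa10. INO80 without H2A.Z at the start itself was found at Hoxa3, Hoxa5, Hoxa6, Hoxa11, Hoxa13, Hoxb4, Hoxc4, Hoxd10, Hoxd12, both starts of Hoxd11 and the other start of Hoxa10. H2A.Z of both lists nevertheless reached into the 300-base promoters of Hoxa13, Hoxd10 and 1 start of Hoxd11. Wild-type H2A.Z alone reached into that of Hoxa6. The starts of Hoxa2, Hoxa7, Hoxa9, Hoxb8, Hoxd4 and Hoxd8 were in no peak.

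H2A.Z absent from a Hox start was often found close by. Within 1 kb of the start, INO80 was present at 23 of 24 (95.8%, against 54.3% of all promoters), knockout H2A.Z at 17 (70.8%, against 58.9%) and wild-type H2A.Z at 18 (75%, against 62.1%). All 3 shares were above those of all promoters, unlike the H2A.Z shares at the start itself. The centre of the nearest knockout H2A.Z peak lay at a median of 505 bp downstream of the Hox start, against 128 bp for all promoters with a peak within 1 kb, and that of the wild-type H2A.Z peak at 458 bp, against 110 bp. The INO80 centre was at 374 bp, against 179 bp. Downstream centres numbered 16 of 23 for INO80 (69.6%, against 75.6% of all promoters with a peak within 1 kb), 14 of 17 for knockout H2A.Z (82.4%, against 70.2%) and 14 of 18 for wild-type H2A.Z (77.8%, against 68.7%), so most centres lay downstream in promoters in general too. At Hoxa5, for example, the INO80 centre was at -187 bp, upstream of the start, and the H2A.Z centre was downstream by 605.5 bp in the knockout list and 644.5 bp in the wild-type list.

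**Figure D3:**
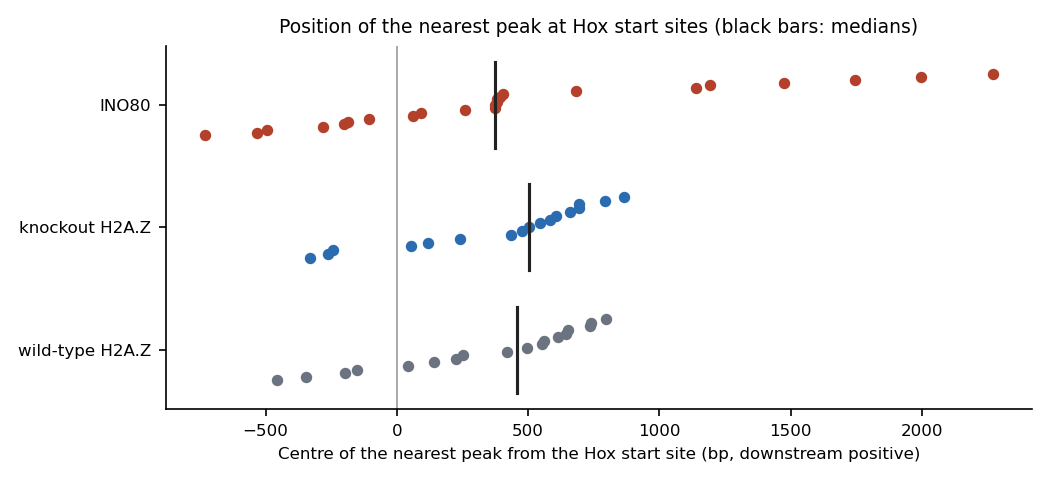
Position of the centre of the nearest peak relative to the Hox start sites that have a peak within 1 kb, in bp with downstream positive, for INO80 (23 starts), knockout H2A.Z (17) and wild-type H2A.Z (18). Points are start sites, spread vertically for visibility, and black bars are medians (374, 505 and 458 bp); most points lie right of the start.

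Anterior and posterior genes were compared next, since the position of a Hox gene in its cluster mirrors where it acts. Posterior genes (paralog groups 9 to 13, 16 genes) had a median of 45.5% of their span inside INO80 peaks, middle genes (groups 5 to 8, 11 genes) 28.7% and anterior genes (groups 1 to 4, 11 genes) 21.0%. For knockout H2A.Z the medians were 8.69%, 7.55% and 6.86%, and for wild-type H2A.Z 12.2%, 10.3% and 7.70%. The posterior medians were thus 2.17 times (INO80), 1.27 times (knockout H2A.Z) and 1.59 times (wild-type H2A.Z) the anterior ones. Gene length goes with this contrast: the 4 genes longer than 15 kb (Hoxa3, Hoxb3, Hoxc4 and Hoxd3) are all anterior. Without them, a setting chosen after seeing the data, the ratios were 1.08, 0.484 and 0.409, so the INO80 difference was nearly absent and H2A.Z cover was higher in anterior genes. For knockout H2A.Z the ratio was also under 1 (0.942) over the gene span without the added 1 kb.

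The INO80 values of single genes overlapped widely between the classes. Among posterior genes INO80 covered 52.6% of Hoxa13, 40.1% of Hoxb13, 18.1% of Hoxc13 and 53.8% of Hoxd13. In group 12 it covered 57.1% of Hoxc12 and 49.2% of Hoxd12, and in group 11 it covered 46.8% of Hoxa11, 49.3% of Hoxc11 and 71.1% of Hoxd11. In group 10 the values were 39.5% for Hoxa10, 16.6% for Hoxc10 and 44.3% for Hoxd10, and in group 9 they were 21.8% for Hoxa9, 28.6% for Hoxb9, 21.8% for Hoxc9 and 57.2% for Hoxd9. HoxC members were the lowest or level with the lowest in groups 9, 10 and 13.

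Middle and anterior genes spanned a similar range. In group 8 INO80 covered 47.5% of Hoxb8, 20.6% of Hoxc8 and 28.7% of Hoxd8, and in group 7 it covered 38.1% of Hoxa7 and 33.8% of Hoxb7. In group 6 it covered 74.0% of Hoxa6, 23.8% of Hoxb6 and 14.4% of Hoxc6, and in group 5 it covered 56.5% of Hoxa5, 24.4% of Hoxb5 and 26.7% of Hoxc5. HoxA members were thus the highest in groups 5, 6 and 7. Anterior genes in group 4 had 42.2% (Hoxa4), 54.7% (Hoxb4), 10.5% (Hoxc4) and 21.0% (Hoxd4), and those in group 3 had 29.7% (Hoxa3), 18.2% (Hoxb3) and 13.8% (Hoxd3). Hoxa2 had 14.1%, Hoxb2 66.5%, Hoxb1 10.9% and Hoxd1 48.7%. Paralogs of the same number therefore did not share a level, and the short anterior genes Hoxb2, Hoxb4, Hoxd1 and Hoxa4 were as covered as many posterior ones.

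**Figure D4:**
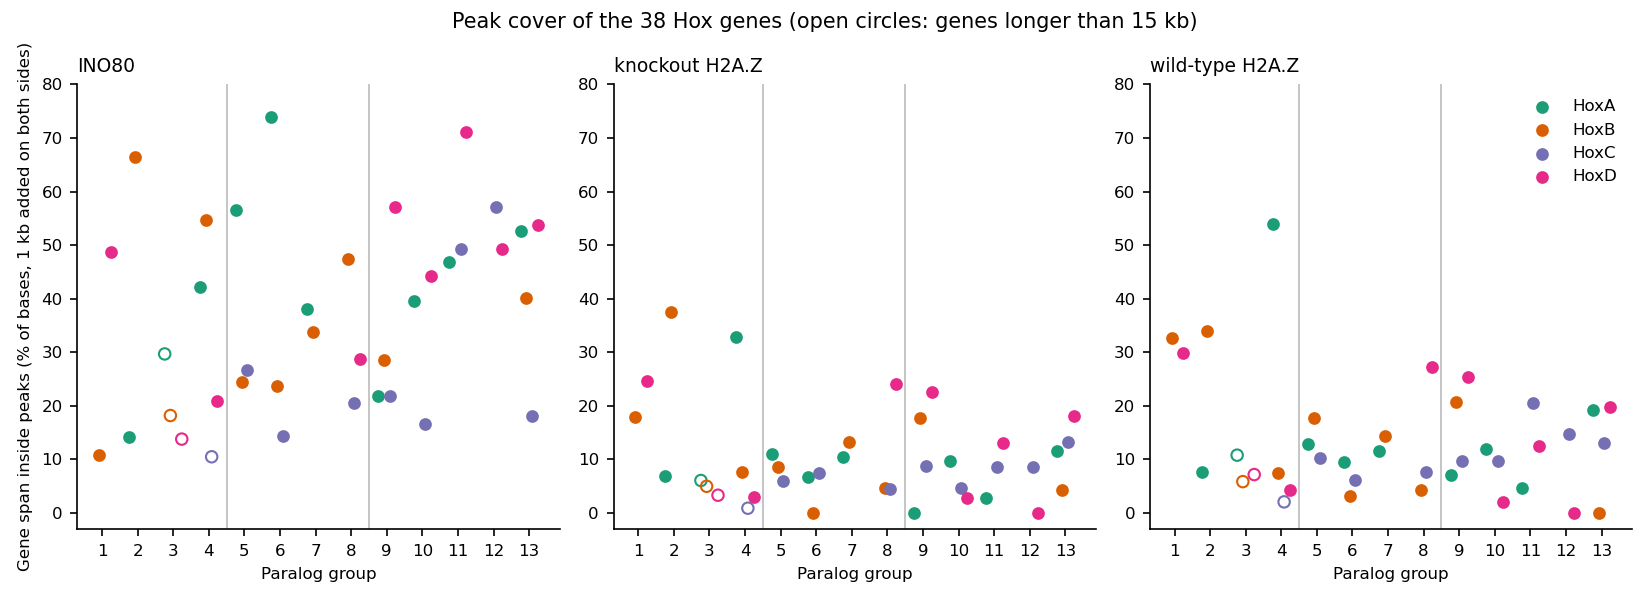
Percent of each Hox gene span (gene plus 1 kb on both sides) inside INO80, knockout H2A.Z and wild-type H2A.Z peaks, by paralog group, with colours for the clusters and grey lines between anterior, middle and posterior groups. Open circles are the 4 genes longer than 15 kb, which lie at or under 29.7% in all panels; INO80 values reach 74.0%, and only Hoxa4, Hoxb1 and Hoxb2 exceed 30% for wild-type H2A.Z.

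In the Hox windows the knockout list held fewer and narrower H2A.Z peaks than the wild-type list, to about the extent seen in the whole lists. Knockout H2A.Z covered 0.698 times as many bases as wild-type H2A.Z, against 0.726 times over the whole lists. By cluster the ratio was 0.630 in HoxA, 0.703 in HoxB, 0.722 in HoxC and 0.738 in HoxD. Where knockout and wild-type H2A.Z peaks overlapped they were merged, which gave 83 regions. In this set 6 (7.23%, against 4.90% in the whole lists) had a knockout peak alone, 26 (31.3%, against 28.7%) a wild-type peak alone, and 51 (61.4%, against 66.4%) peaks of both genotypes. These shares were near those of the whole lists. These counts move with the number of peaks listed: after the wild-type list was shortened by width to match the knockout list, 11 regions were knockout only and 12 wild type only.

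HoxB had the most regions found in the wild type alone and HoxD the fewest. In HoxB 1 of 23 regions was found in the knockout alone and 10 in the wild type alone, whereas HoxD had 2 of 18 in the knockout alone and 2 in the wild type alone. HoxA had 1 and 6 of 21 regions, and HoxC 2 and 8 of 21. The HoxB regions of the wild type alone included 4 in the sequence between Hoxb13 and Hoxb9, where the knockout list had no peak. The widest regions of the wild type alone were a 774 bp peak inside Hoxd3 (chr2:74715771-74716544), a 538 bp peak above Hoxb13 (chr11:96203426-96203963) and a 500 bp peak inside Hoxb5 (chr11:96304699-96305198).

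Regions of the knockout alone were narrow, from 149 to 279 bp. They lay at Hoxb13 (186 bp), Hoxc9 (153 bp), next to Hoxc6 (279 bp), inside Hoxd11 (184 bp), past Hoxd9 (164 bp) and between Hoxa11 and Hoxa13 (149 bp). At Hoxc9 the knockout peak (chr15:102977014-102977166) ended close to the start of a 233 bp wild-type peak (chr15:102977186-102977418).

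H2A.Z regions of each class, shared or confined to 1 genotype, held INO80 more often in the Hox windows than in the whole lists. INO80 overlapped 5 of the 6 knockout-only regions (83.3%, against 22.5% in the whole lists), 20 of the 26 wild-type-only regions (76.9%, against 15%) and 48 of the 51 shared regions (94.1%, against 61.1%). INO80 covers 17.1% of the windows, and the part of this dense cover in these shares was not tested.

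Shared regions were mostly narrower in the knockout list, except in HoxB. The median ratio of knockout to wild-type width was 0.825 over the 51 shared regions (range 0.365 to 2.03), against 0.867 over the whole lists, and 15 of 51 (29.4%, against 26.9%) were wider in the knockout list. The median was 0.735 in HoxA, 0.746 in HoxC and 0.722 in HoxD, and 2 of 14, 4 of 11 and 2 of 14 regions were wider in the knockout list there. In HoxB the median was 1.04, with 7 of 12 regions wider in the knockout list. HoxB thus had both the most regions absent from the knockout list and the highest width ratio in the others, on 11 to 14 shared regions a cluster that are not independent of each other.

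Single regions show the range. At Hoxd1 the H2A.Z region had 1026 bp in the knockout list and 1244 bp in the wild-type list. Inside Hoxb3 a region had 504 bp in the knockout list and 303 bp in the wild-type list, and at Hoxc5 another had 320 bp in the knockout list and 158 bp in the wild-type list. The sharpest narrowing was between Hoxd3 and Hoxd1, with 292 bp in the knockout list and 801 bp in the wild-type list. Over gene spans, 8 of the 37 Hox genes with any H2A.Z (21.6%, against 22.3% of all protein-coding genes with any) held more of it in the knockout list, namely Hoxb2, Hoxb4, Hoxb8, Hoxb13, Hoxc6, Hoxc13, Hoxd10 and Hoxd11.

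**Figure D5:**
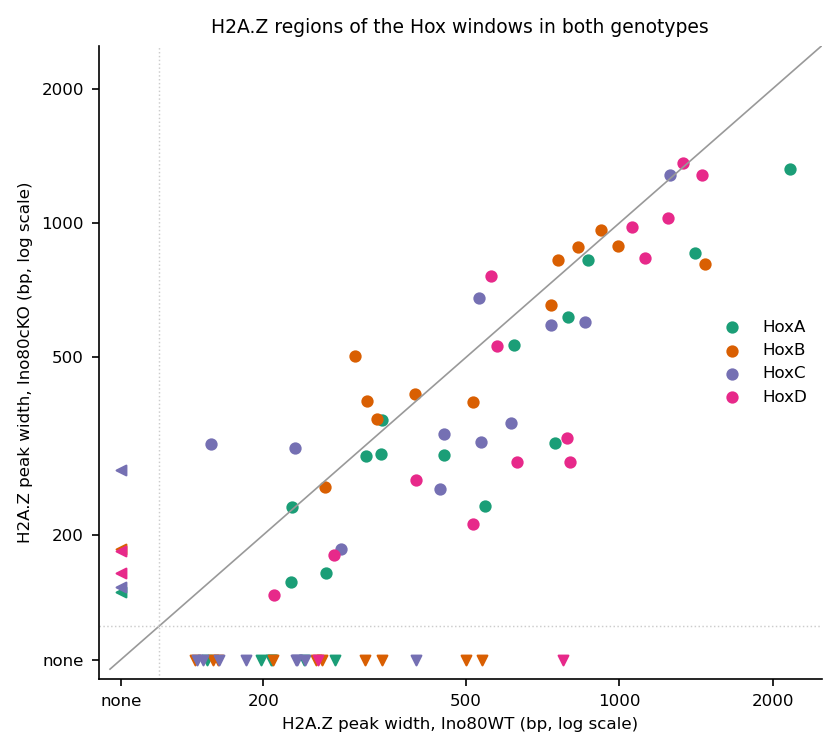
Width of the H2A.Z peaks in each region of the Hox windows, knockout list on the vertical and wild-type list on the horizontal axis (bp, log scales), with triangles for regions found in 1 genotype and colours for the clusters. Of the 51 shared regions 36 lie under the diagonal of equal width and 15 above it, 7 of them in HoxB; the 26 wild-type-only and 6 knockout-only regions lie along the edges.

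Genes that work with Hox proteins or resemble them were viewed in the same way. Of 4 families of homeobox or paired-box genes outside the clusters that also pattern the embryo, 3 had a median INO80 cover above the 35.9% of the Hox genes, and the Pax genes had a lower one. The ParaHox and even-skipped genes (Cdx, Gsx, Pdx1 and Evx, the nearest relatives of the Hox genes) had INO80 at the ends of 8 of 8, knockout H2A.Z at 3 and wild-type H2A.Z at 4, with medians of 49.5%, 6.86% and 8.84% of the span. Of these, Evx2 lies in a flank of HoxD, so its 4 INO80 peaks are also counted in the Hox windows. The Irx genes had INO80 at 6 of 6, knockout H2A.Z at 4 and wild-type H2A.Z at 5 (medians 76.3%, 17.9% and 21.6%), and the Dlx genes had all 3 at 6 of 6 (47.3%, 9.41% and 12.4%). The Pax genes had INO80 at 9 of 9 and each H2A.Z list at 5 (8.84%, 1.27% and 2.05%). Their INO80 peaks were not narrower, with a median widest peak at an end of 2100 bp, against 1880 bp in the Hox genes. Of all protein-coding genes, 54.5% had INO80, 59.2% knockout H2A.Z and 62.6% wild-type H2A.Z at an end. INO80 over more of the gene than H2A.Z was therefore not particular to the Hox clusters.

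The TALE genes, whose proteins (Pbx, Meis and Pknox) bind DNA together with Hox proteins, had far less of their span inside peaks. INO80 and both H2A.Z lists each had a peak at an end of 8 of 9 of them (88.9%), above the shares of all genes. The median covered percents of the span were 1.17% for INO80, 1.23% for knockout H2A.Z and 1.25% for wild-type H2A.Z, near those of all genes. The median widest INO80 peak at an end was 1330 bp, against 844 bp in all genes and 1880 bp in the Hox genes. A peak of a given width fills a smaller percent of a long gene, and gene lengths were not matched. Meis3 was the gene without INO80, Pknox1 had H2A.Z at an end in the knockout list alone (156 bp) and Meis3 in the wild-type list alone (823 bp). Peak lists hold no expression, so the labelled cell type could not be checked by levels. Against the 54.5%, 59.2% and 62.6% of all genes with INO80, knockout H2A.Z and wild-type H2A.Z at an end, markers of germ cells had INO80 at 5 of 6 genes and each H2A.Z list at 4, with medians of 1.87%, 1.0% and 1.67% of the span. Sertoli cell markers had each kind of peak at 3 of 4 (medians 22.4%, 6.63% and 9.54%). Leydig and peritubular cell markers had INO80 at 2 of 5, knockout H2A.Z at 1 and wild-type H2A.Z at 2, with a median of 0.0% in each list.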

How the data were processed

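The authors deposited 3 peak lists, 1 per ChIP group, whose values are the start and end positions of peaks in bp without height, p-value or score. The submitters' processing notes name Bowtie2, SAMtools, deepTools, MACS2 and the build mm10. The sources used here do not state their roles and versions, the peak threshold, the control or how the 2 libraries of each group were joined. Per the labels' protocols chromatin was cut with micrococcal nuclease, so peak outlines also follow nucleosomes. Depth per library is unknown, and whether a weak peak is listed depends on it. Inputs and single libraries were not analysed here. Whether libraries of the same group came from separate animals is not stated in the labels.

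Gene positions, promoters and miRNAs are from RefSeq (GRCm38.p6, the assembly mm10 names). The symbol rule found 39 genes, of which 1 in HoxA is not reported here; its end still sets the bounds of that cluster and its peaks count in the window. Peaks overlapped at 1 bp or more, and covered bases were clipped to the window or gene span. A region is a set of overlapping H2A.Z peaks. Ratios of covered bases compare lists that were called separately. The 38 Hox genes, the comparison lists and the rules were chosen with earlier results of these data known. Genes given in full are, per cluster, those whose widest INO80 peak at an end is the largest and the smallest, those whose H2A.Z differs between the lists and those lacking a kind of peak; others were added where a wide peak or region lies. Alternatives were windows of 500 bp and 3 kb, start sites alone, flanks of 0 or 50 kb, a 50% overlap, the widest 50% of each list, the wild-type list cut to the knockout list's length, other gene classes and spans, and leaving out each cluster or long genes. Cover and overlap functions were tested on simulated data, and overlap counts equalled those of bedtools 2.31.1 for 6 of 6 pairs of lists. Python 3.11.15 was used, with pandas 2.3.3, numpy 2.4.6 and matplotlib 3.10.9.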

Additional observations from a re-analysis of the deposited data

How the results depend on the processing

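Of 74 values of 14 results under other settings, 56 kept their direction and lay within 1.5 times the value reported, 14 lay outside and 4 changed direction. With the widest 50% of each list, which removes peaks by construction, the windows held 52 INO80, 23 knockout H2A.Z and 34 wild-type H2A.Z peaks, with 22 shared, 1 knockout-only and 12 wild-type-only regions, and 13 (knockout H2A.Z) and 17 (wild-type H2A.Z) Hox genes had a peak at an end. The posterior to anterior ratio of knockout H2A.Z was then 0.0. With 1 kb around the start sites alone, known for 22 of the 38 genes, 21 had INO80, 16 knockout H2A.Z and 17 wild-type H2A.Z. With the wild-type H2A.Z list cut to the knockout list's length, 11 regions were knockout only and 12 wild type only, a shift the cut makes by construction. The posterior to anterior ratio was 0.942 for knockout H2A.Z over the gene span alone, and without genes longer than 15 kb it was 1.08 for INO80, 0.484 for knockout H2A.Z and 0.409 for wild-type H2A.Z (all 4 long genes are anterior, so length and class cannot be told apart, and the cause was not tested). No paired analysis was possible because each list joins the 2 libraries of its group, and for the same reason no library could be left out. The depth behind the lists is unknown, so what it limits cannot be stated.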

Other observations

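Several non-coding genes lie in the Hox windows. The miRNA genes of the clusters include Mir196b in HoxA, Mir196a-1 in HoxB and Mir196a-2 in HoxC, which give rise to mature miRNAs with the same seed (bases 2 to 8, in capitals below) that in mice target Hoxb8 mRNA. The hairpin of Mir196b lay inside a 1172 bp INO80 peak with no H2A.Z peak over it in either list. Mir196a-1 and Mir196a-2 lay outside every peak, the nearest INO80 peak being 3491 and 2438 bp away. The 3 loci of the family therefore differed in INO80.
miR-196b-5p (chromosome 6): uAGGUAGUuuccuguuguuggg
miR-196a-5p (chromosomes 11 and 15): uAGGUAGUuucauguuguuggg

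Mir10a in HoxB and Mir10b in HoxD were also outside every peak, with INO80 663 and 473 bp from their hairpins, and Mir615 in HoxC lay inside a 1450 bp INO80 peak and a 398 bp wild-type H2A.Z peak that had no knockout partner. Of the long non-coding RNA genes, Hotair in HoxC and Hottip beside Hoxa13, both studied as regulators of Hox chromatin, held no peak of any list. Hotairm1 and Hotairm2 shared a 2843 bp INO80 peak with H2A.Z of 858 bp in the knockout list and 1407 bp in the wild-type list. Haglr, between Hoxd3 and Hoxd1, held 1 INO80 peak and 3 peaks of each H2A.Z list. Gm53, between Hoxb13 and Hoxb9, held 4 INO80 peaks, no knockout H2A.Z peak and 3 wild-type H2A.Z peaks, the widest of which was 261 bp.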
